A study of Mus musculus with 9 samples.

Results

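The 9 genes described here are markers of myelin and of the mature oligodendrocytes that make it: Mbp, Mobp, Mog, Mag, Opalin, Cldn11, Cnp, Ugt8a and Myrf. They were taken by gene name from a table of 55385 gene rows, and each name stood on 1 row. All 9 passed the filter on low values that left 16982 genes for testing. Every library came from the ischemic hemisphere of C57BL/6 mice, all male and 8 to 10 weeks old, and each of the 3 groups had 3 libraries. The sham mice had the neck surgery with no occlusion of the middle cerebral artery. In the tMCAO mice (transient middle cerebral artery occlusion, a model of ischemic stroke) a coated filament blocked the right artery for 90 min and was then removed. The celastrol mice had that occlusion plus 4.5 mg/kg of celastrol, a compound from a medicinal vine, injected into the abdomen as blood flow returned. The sources used here do not give the hours or days between reperfusion and sampling, the animals behind each library, or whether the sham and tMCAO mice received a vehicle. The p-values below therefore measure the spread between these libraries, which may be technical.

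Oligodendrocytes wrap axons of the brain in many layers of membrane, the myelin sheath, which speeds conduction and supplies the axon. The sheath is rich in lipids, above all galactosylceramide and its sulfated form, and holds a small set of very abundant proteins. Ischemia kills oligodendrocytes as well as neurons, and precursor cells in the adult brain can divide and form new myelin. In RNA from whole tissue, fewer oligodendrocytes and less of a transcript in each of them cannot be told apart.

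Gene positions are those of the deposited table (build mm10). Ugt8a (chromosome 3, 125865271 to 125938619, minus strand) and Cldn11 (chromosome 3, 31149920 to 31164324, plus strand) share a chromosome, as do Myrf (chromosome 19, 10208272 to 10240748, minus strand) and Opalin (chromosome 19, 41061710 to 41077113, minus strand). Mobp lies on chromosome 9 (120149707 to 120176091, plus strand), Mag on chromosome 7 (30899176 to 30914865, minus strand) and Mog on chromosome 17 (37010743 to 37023398, minus strand). Cnp lies on chromosome 11 (100574904 to 100591729, plus strand). Exons of Cnp overlap exons of Dnajc7 on the other strand, whose mean level was 151 CPM (counts scaled to the library total, with TMM factors). The level of Cnp is uncertain, since the sources used here do not say whether reads were counted by strand. No exon of the other 8 genes overlaps an exon of another row.

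The 4 upstream sequences printed here belong to the gene that differed most between groups (Ugt8a), to a gene that was higher relative to the rest (Cldn11), to the most abundant gene (Mobp) and to the gene closest to the mean of the set (Mag). Each is the 250 bases before the annotated start, 5′ to 3′ on the gene's strand, from RefSeq on GRCm38.p6. Capitals mark matches on either strand to CTGGNAC, a motif bound by MYRF, or ACAAAG, a core bound by SOX factors.
Ugt8a (chr3:125938653-125938902, minus strand): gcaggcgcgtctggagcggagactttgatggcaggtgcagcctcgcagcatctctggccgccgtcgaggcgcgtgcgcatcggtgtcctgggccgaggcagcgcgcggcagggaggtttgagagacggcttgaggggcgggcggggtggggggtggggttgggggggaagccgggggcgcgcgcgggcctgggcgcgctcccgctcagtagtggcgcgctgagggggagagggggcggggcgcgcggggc
Cldn11 (chr3:31149670-31149919, plus strand): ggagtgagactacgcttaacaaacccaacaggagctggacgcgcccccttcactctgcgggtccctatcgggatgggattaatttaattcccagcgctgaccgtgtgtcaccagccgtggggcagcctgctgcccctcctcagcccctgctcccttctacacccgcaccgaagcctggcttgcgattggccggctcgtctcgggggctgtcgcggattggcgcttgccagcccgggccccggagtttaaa
Mobp (chr9:120149492-120149741, plus strand): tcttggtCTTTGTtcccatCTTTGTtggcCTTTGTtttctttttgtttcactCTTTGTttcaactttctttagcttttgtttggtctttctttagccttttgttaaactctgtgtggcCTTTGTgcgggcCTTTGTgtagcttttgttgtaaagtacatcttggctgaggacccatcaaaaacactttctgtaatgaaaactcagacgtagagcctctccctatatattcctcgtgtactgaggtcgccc
Mag (chr7:30914864-30915113, minus strand): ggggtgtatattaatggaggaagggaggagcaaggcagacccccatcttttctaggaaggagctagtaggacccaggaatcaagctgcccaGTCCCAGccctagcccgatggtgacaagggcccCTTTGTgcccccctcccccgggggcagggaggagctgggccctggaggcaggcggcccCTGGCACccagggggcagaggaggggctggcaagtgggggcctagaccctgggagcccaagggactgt
The Ugt8a and Cldn11 windows hold neither motif. The Mobp window holds 6 copies of ACAAAG, all read on the opposite strand, and the Mag window holds 2 matches to CTGGNAC and 1 to ACAAAG. The RefSeq table had 9 such windows for 7 of the 9 genes, with 3 alternative starts for Mag, of which 2 have windows that overlap. These 2, of which 1 is printed, hold the same matches and are both counted below. The other Mag window holds none of the motifs. Of the 9 windows, 4 held CTGGNAC, 5 held ACAAAG and 0 held CAGCTG, an E-box bound by OLIG factors. Among all 32851 promoters of that table, 16.1% held CTGGNAC, 16.5% ACAAAG and 13.0% CAGCTG in a window of the same length. None of the 3 motifs overlaps another in these windows. A match is a description of the letters and not a measured binding site.

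The libraries held 60392960 to 75158625 estimated counts. The smallest count among the 9 genes was 293 (Opalin in celastrol replicate 2, a counting error of 5.84%) and the largest 152181 (Mobp in celastrol replicate 3, 0.256%), small beside the spread between libraries. Intervals of this kind cover counting error only. Every member of the neuron and astrocyte marker lists was detected in every library. Markers of the choroid plexus, thalamus, hippocampus and striatum differed widely between libraries of 1 group. The summed level of 10 choroid plexus markers ran from 12.4 to 53.8 CPM in sham, from 21.7 to 507 CPM in tMCAO and from 9.40 to 1822 CPM in celastrol libraries, with Folr1 and Otx2 at 0 in some. Celastrol replicate 2 stood apart for the myelin genes, as given below, and several results are also given without it.

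In FPKM (fragments scaled for exon length and library size), the order of levels in sham libraries ran from Mobp to Myrf. Mobp was at 132 FPKM, with each sham library above every other gene of the set in any sham library. Cnp (65.4 FPKM), Mbp (53.2 FPKM) and Cldn11 (51.3 FPKM) followed with overlapping sham libraries, and so did Mog (31.3 FPKM) and Mag (29.6 FPKM). Ugt8a was at 11.7 FPKM, followed by Opalin at 5.68 and Myrf at 5.56 FPKM, a pair that also did not differ beyond its spread. The deposited FPKM divides by the length of all exons of a gene joined together, which lowers genes with many transcripts such as Mbp. Per kilobase of the longest transcript, Mobp again came first (310 CPM per kilobase), Mbp moved to the second place (106) and Opalin to the last (6.75).

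None of the 9 genes passed the threshold of adjusted p under 0.05 in any comparison by edgeR's quasi-likelihood test. The same was true of nearly all genes: 0.0% of the 16982 were called in tMCAO against sham, 0.0% in celastrol against tMCAO and 0.00589% (1 gene, Fcgr4) in celastrol against sham. At an unadjusted p under 0.05, 1 of 9 genes (Ugt8a) was lower in tMCAO than in sham, where 14.9% of all genes were past that mark in either direction. In celastrol against tMCAO 0 of 9 were, beside 4.11% of all genes. In celastrol against sham it was again 1 of 9, Ugt8a, beside 8.51%. Both comparisons with sham share the same control libraries. By DESeq2, 1 of the 9 was called in tMCAO against sham (Ugt8a), 0 in celastrol against tMCAO and 0 in celastrol against sham. The same tool called 4.92%, 0.112% and 2.24% of all 16982 genes in these comparisons. The median log2 fold change of the 9 genes was 0.18, 0.11 and 0.17 in the comparisons in that order, beside 0.01, −0.00 and 0.00 for all genes tested. These shares and medians do not set the 9 genes apart from the background.

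**Figure D1:**
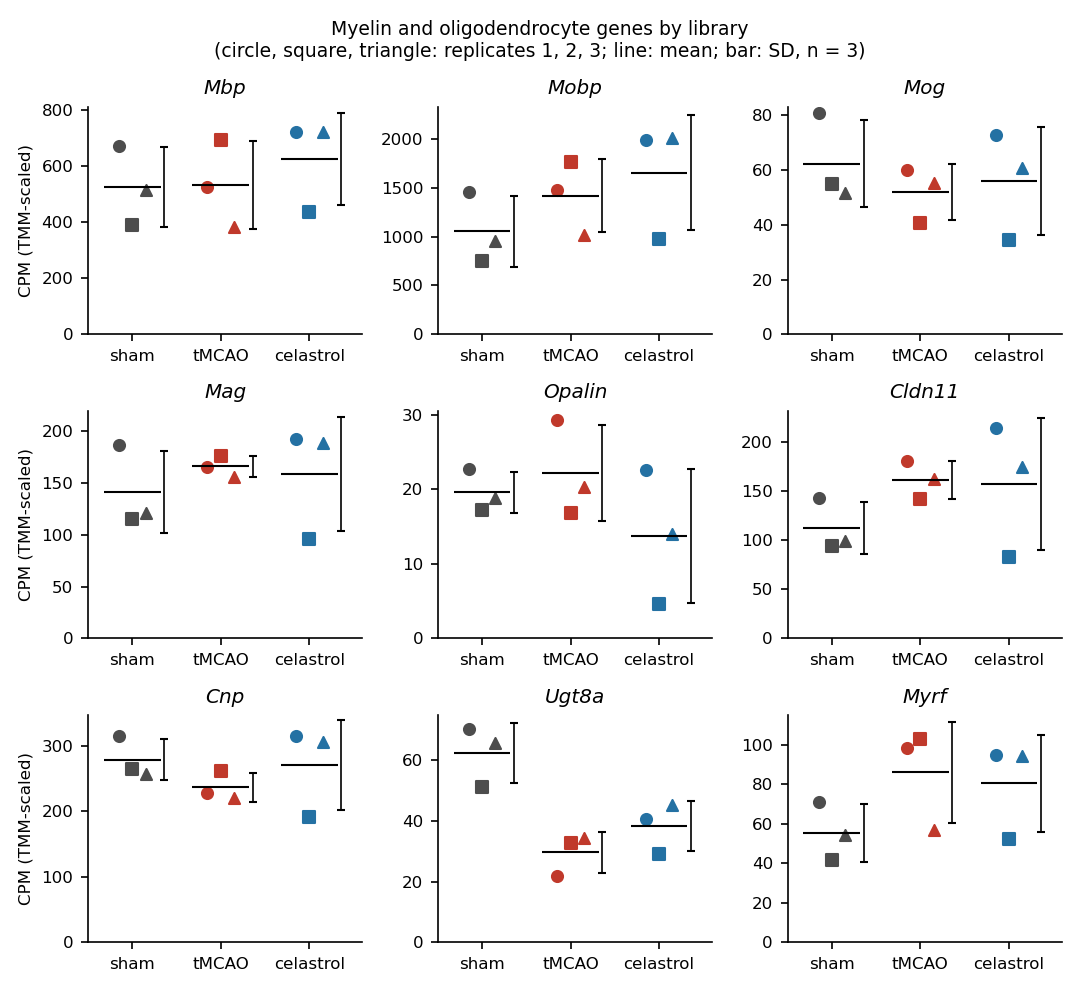
Level of each of the 9 genes in each library in CPM, on linear axes from 0, by group; shapes mark replicates 1 to 3, lines the mean and bars the SD (n = 3). Ugt8a is the gene whose sham libraries (51.1 to 70.2 CPM) all lie above the tMCAO and celastrol libraries (21.8 to 45.1 CPM), and the square of celastrol replicate 2 is low in most panels.

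Ugt8a encodes the enzyme that joins galactose to ceramide, making the galactosylceramide of myelin. It was at 70.2, 51.1 and 65.5 CPM in sham replicates 1 to 3, at 21.8, 32.8 and 34.2 CPM in the tMCAO libraries and at 40.6, 29.2 and 45.1 CPM in the celastrol libraries. Every sham library lay above every library with occlusion, and the tMCAO and celastrol groups overlapped. The mean was 62.3 ± 9.95 CPM (SD, n = 3) in sham, 29.6 ± 6.77 in tMCAO and 38.3 ± 8.20 in celastrol libraries. The level in tMCAO was 2.11-fold lower than in sham, a log2 fold change of −1.07 ± 0.23 (SE), with an unadjusted edgeR p of 0.00107 and an adjusted p of 0.125. It ranked 140 of 16982 genes by p. Over 18 alternative settings the adjusted p ran from 0.00111, in DESeq2, to 0.396, with the unadjusted p under 0.05 in 18 of 18. In celastrol against sham the level was 1.63-fold lower, a log2 fold change of −0.70 ± 0.22 with an edgeR adjusted p of 0.399 (0.116 to 0.88 over the alternatives). Between celastrol and tMCAO the log2 fold change was 0.37 ± 0.22 (edgeR adjusted p of 0.976), with 2 SE either side reaching from −0.07 to 0.82. Among all genes, 11.1% had non-overlapping lower groups in tMCAO against sham and 5.54% in celastrol against sham, beside 1 of the 9 members in each. In celastrol against tMCAO 0 of 9 did, beside 4.13%. No member had non-overlapping higher groups, where the shares of all genes were 12.4%, 7.89% and 3.73% in tMCAO against sham, celastrol against sham and celastrol against tMCAO.

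The genes of the compact sheath itself gave a different picture. Mbp encodes myelin basic protein, which holds the cytoplasmic faces of the membrane together. It was at 673, 391 and 514 CPM in sham, 525, 695 and 382 CPM in tMCAO and 721, 435 and 720 CPM in celastrol libraries. The groups overlapped, with the lowest value of all in tMCAO replicate 3. The log2 fold change in tMCAO against sham was 0.02 ± 0.29 (edgeR adjusted p of 0.981), and 2 SE either side reached from −0.55 to 0.60. Celastrol against tMCAO gave 0.23 ± 0.29 and celastrol against sham 0.25 ± 0.29.

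Mobp encodes a small basic protein of compact central myelin. It was at 1458, 753 and 952 CPM in sham, 1477, 1757 and 1019 CPM in tMCAO and 1983, 970 and 2007 CPM in celastrol libraries. Sham replicate 1 lay inside the tMCAO range and celastrol replicate 2 inside the sham range, and all groups overlapped. The log2 fold change was 0.43 ± 0.34 in tMCAO against sham (edgeR adjusted p of 0.591), 0.22 ± 0.34 in celastrol against tMCAO and 0.65 ± 0.34 in celastrol against sham (unadjusted p of 0.0916, adjusted 0.663).

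Among surface proteins of the sheath, Mog encodes a protein of its outermost layer. Its level was 80.8, 54.8 and 51.7 CPM in sham, 60.2, 40.7 and 55.2 CPM in tMCAO and 72.9, 34.4 and 60.8 CPM in celastrol libraries. Sham replicate 1 was highest and celastrol replicate 2 lowest, with overlap between groups. The log2 fold changes were −0.26 ± 0.29 in tMCAO against sham, 0.11 ± 0.29 in celastrol against tMCAO and −0.16 ± 0.29 in celastrol against sham.

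Mag encodes an adhesion protein of the inner layer that faces the axon. It was at 186, 115 and 121 CPM in sham, 165, 176 and 156 CPM in tMCAO and 192, 95.4 and 188 CPM in celastrol libraries. The tMCAO libraries were the most alike (SD 9.94 CPM, against 39.5 in sham and 54.7 in celastrol) and lay between the extremes of the other groups. The log2 fold changes were 0.23 ± 0.27, −0.06 ± 0.27 and 0.17 ± 0.27 for tMCAO against sham, celastrol against tMCAO and celastrol against sham.

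Opalin encodes a membrane glycoprotein of central nervous system oligodendrocytes. It was at 22.7, 17.3 and 18.8 CPM in sham, 29.3, 16.8 and 20.4 CPM in tMCAO and 22.7, 4.62 and 14.0 CPM in celastrol libraries. Celastrol replicate 2 was far below the other 8 libraries, and the groups overlapped. The log2 fold change was 0.18 ± 0.47 in tMCAO against sham, −0.68 ± 0.47 in celastrol against tMCAO (edgeR adjusted p of 0.976) and −0.51 ± 0.47 in celastrol against sham. Without celastrol replicate 2 these were −0.27 in celastrol against tMCAO and −0.0943 in celastrol against sham. Without celastrol replicate 1 they were −1.25 and −1.07.

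Cldn11 encodes the claudin of the tight junctions between turns of the sheath. It was at 143, 94.5 and 99.4 CPM in sham, 181, 142 and 162 CPM in tMCAO and 215, 83.3 and 174 CPM in celastrol libraries. The tMCAO libraries lay above the sham libraries, except that tMCAO replicate 2 was just below sham replicate 1, and celastrol replicate 2 was the lowest of all. The log2 fold change was 0.52 ± 0.31 in tMCAO against sham (unadjusted edgeR p of 0.129, adjusted 0.467), −0.04 ± 0.31 in celastrol against tMCAO and 0.49 ± 0.31 in celastrol against sham. Without celastrol replicate 2 the last was 0.79 (edgeR adjusted p of 0.172).

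Cnp encodes a phosphodiesterase of the cytoplasmic channels of the sheath. It was at 315, 265 and 257 CPM in sham, 227, 261 and 221 CPM in tMCAO and 315, 192 and 306 CPM in celastrol libraries. It varied least of the 9 genes over the 9 libraries (SD of log2 CPM 0.25), and its groups overlapped. The log2 fold change was −0.24 ± 0.19 in tMCAO against sham, 0.20 ± 0.19 in celastrol against tMCAO and −0.04 ± 0.19 in celastrol against sham.

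Myrf encodes the transcription factor that oligodendrocytes need to switch on and maintain myelin genes. It was at 70.9, 41.7 and 54.3 CPM in sham, 98.4, 103 and 56.8 CPM in tMCAO and 95.1, 52.3 and 94.2 CPM in celastrol libraries. In each of the groups with occlusion 2 libraries lay above all sham libraries and 1 lay inside the sham range. The log2 fold change was 0.63 ± 0.31 in tMCAO against sham (unadjusted edgeR p of 0.072, adjusted 0.383), −0.10 ± 0.31 in celastrol against tMCAO and 0.53 ± 0.31 in celastrol against sham.

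**Figure D2:**
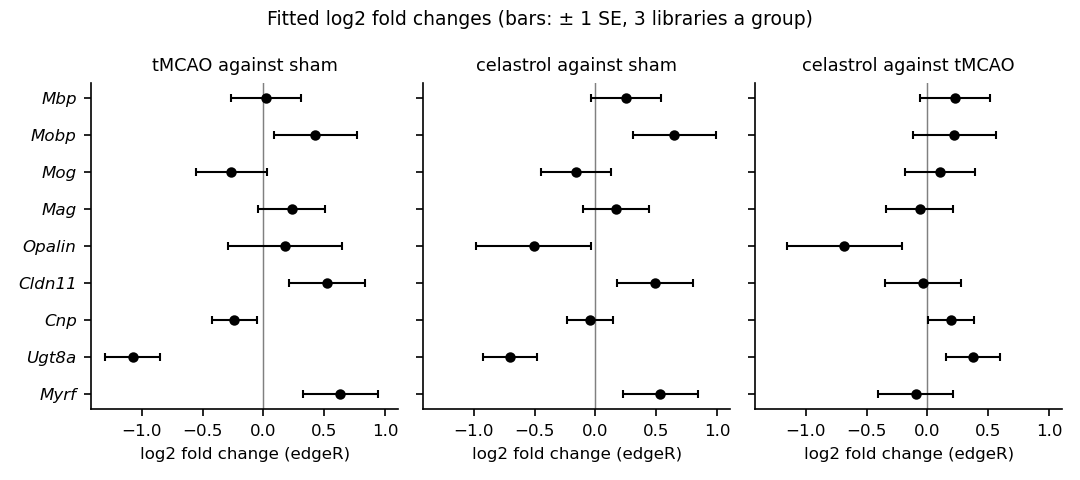
Log2 fold change of each of the 9 genes in the 3 comparisons as fitted by edgeR; points are estimates and bars ± 1 SE, with 3 libraries a group. Ugt8a is lowest against sham (−1.07 in tMCAO and −0.70 in celastrol libraries), while 6 of the 9 estimates in tMCAO against sham are positive.

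Much of the variation of the 9 genes was between libraries of 1 group. The mean over the 9 genes of log2 CPM minus its sham mean was 0.34, −0.26 and −0.08 in sham replicates 1 to 3. In the tMCAO libraries it was 0.13, 0.12 and −0.10, and in the celastrol libraries 0.42, −0.65 and 0.29. Sham replicate 1 had all 9 genes above their own mean over the 9 libraries, and celastrol replicate 2 had 0 of 9 above it. Celastrol replicate 2 held the lowest of 9 values for 5 genes (Mog, Mag, Opalin, Cldn11 and Cnp). The summed level of the 9 genes ran from 1783 to 3020 CPM in sham, 2106 to 3224 CPM in tMCAO and 1896 to 3657 CPM in celastrol libraries.

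Other marker lists also differed between these libraries, some along with the 9 genes and some not, and their part was not tested. The mean of 30 other mature oligodendrocyte genes was highest in sham replicate 1 (0.29) and lowest in celastrol replicate 2 (−0.54). The mean of the choroid plexus markers was lowest in celastrol replicate 2 (−1.68) and highest in celastrol replicates 1 (3.85) and 3 (2.59). Thalamic markers were at −0.60 in celastrol replicate 1, where the mean of the 9 genes was highest, and were high in tMCAO replicate 2 (1.98), celastrol replicate 3 (1.40) and sham replicate 1 (0.84), with summed levels from 158 to 516 CPM in sham, 223 to 1039 CPM in tMCAO and 204 to 669 CPM in celastrol libraries. Of the thalamic markers, Tcf7l2 is also a gene of the oligodendrocyte lineage. Striatal neuron markers were highest in sham replicate 3 (1.44), where the myelin mean was −0.08, and summed to between 258 and 1760 CPM over all libraries.

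**Figure D3:**
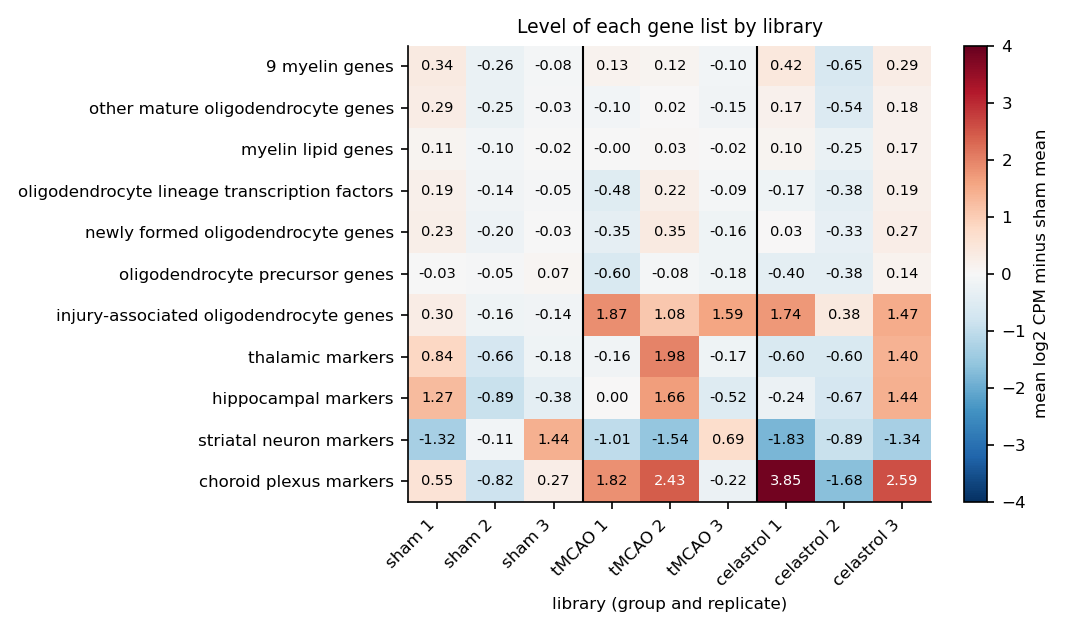
Mean log2 CPM of each gene list in each library minus the sham mean (colour and printed value), libraries in columns by group and replicate. The top lines, the 9 myelin genes and other mature oligodendrocyte genes, are both high in sham replicate 1 (0.34 and 0.29) and low in celastrol replicate 2 (−0.65 and −0.54), while the choroid plexus markers span −1.68 to 3.85 within the celastrol group.

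Without celastrol replicate 2 more of the 9 genes were past an unadjusted p of 0.05 in edgeR, and none was past the adjusted threshold. In tMCAO against sham there were 3 (Ugt8a lower, Myrf and Cldn11 higher), beside 16.4% of all genes. That comparison holds no celastrol library, and its log2 fold changes stayed the same (Ugt8a −1.07, Myrf 0.63 and Cldn11 0.52). Its p-values moved because the spread is estimated over all groups in 1 fit, so these are not larger differences from sham. In celastrol against sham there were 4 (Ugt8a lower, Mobp, Myrf and Cldn11 higher), beside 12.5% of all genes, and in celastrol against tMCAO there were 2 (Cnp and Ugt8a, both higher), beside 3.24%. Leaving out other libraries also changed these counts. In tMCAO against sham 2 genes (Ugt8a and Myrf) were past that mark without sham replicate 1 or without tMCAO replicate 3, beside 14.6% and 14.7% of all genes. In celastrol against sham there were 2 without sham replicate 1 (Mobp and Ugt8a, beside 9.63% of all genes) and 2 without celastrol replicate 1 (Ugt8a and Opalin, beside 4.93%). Without celastrol replicate 1 there was 1 (Opalin, lower) in celastrol against tMCAO, beside 6.46%.

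To set aside a level shared by the 9 genes, each was also compared with the mean log2 CPM of the other 8 in the same library, relative to sham. On this scale Ugt8a was at −1.84, −1.16 and −0.85 in the tMCAO libraries and at −1.15, −0.49 and −0.83 in the celastrol libraries, with the sham libraries between −0.18 and 0.19. All 6 libraries with occlusion lay below sham, celastrol replicate 2 included. Of all 16982 genes, 53 (0.312%) lay below sham in all 6 libraries, and 1 of the 9 members did. Genes outside the set were compared with the mean of all 9 members, a level that they need not share. That share is therefore not a like background for Ugt8a.

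Myrf and Cldn11 lay above sham in all 6 libraries on this scale, 2 of the 9 members, in part through low members of their reference (given below). With genes outside the set compared with the mean of all 9, 546 of all genes (3.22%) did, which is not a like background either. Myrf was at 0.81, 0.91 and 0.18 in tMCAO and at 0.44, 0.66 and 0.57 in celastrol libraries, with sham between −0.14 and 0.09. Cldn11 was at 0.65, 0.27 and 0.74 in tMCAO and at 0.61, 0.27 and 0.42 in celastrol libraries, with sham between −0.08 and 0.04. The values of a gene on this scale depend on the other 8, so a low Ugt8a or Opalin raises each of the rest. In celastrol replicate 2 Opalin was at −2.07 and Ugt8a at −1.08 log2 CPM relative to their sham means. For Myrf in tMCAO replicate 3 (0.18, beside a sham maximum of 0.09) the place above sham rests on the low Ugt8a. Ugt8a was at −0.85 log2 CPM relative to its sham mean there. With Ugt8a left out of the reference, Myrf in that library falls inside the sham range. The log2 CPM of Myrf there was 0.06 above its own sham mean, inside the sham range of −0.38 to 0.38. For Cldn11 in celastrol replicate 2 (0.27) the place above sham rests on the low Opalin and Ugt8a together. The log2 CPM of Cldn11 there was −0.40 relative to its own sham mean, below the sham range of −0.22 to 0.37. The full comparison was not repeated without Ugt8a or Opalin. The remaining 6 genes overlapped sham. The measure was chosen after the values were seen and carries no test.

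**Figure D4:**
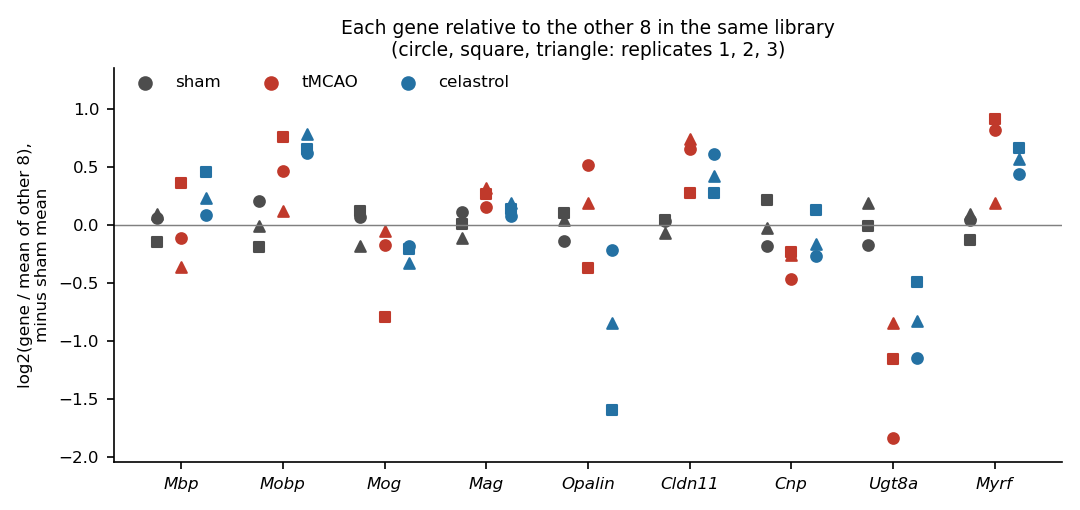
Log2 level of each gene relative to the mean of the other 8 in the same library, minus its sham mean, by group; shapes mark replicates 1 to 3. Ugt8a lies below the sham points in all 6 libraries with occlusion (−1.84 to −0.49), Myrf (0.18 to 0.91) and Cldn11 (0.27 to 0.74) lie above them, and Opalin spreads widest within the celastrol group (−1.60 to −0.22). The reference for Myrf and Cldn11 includes the low Ugt8a and, in celastrol replicate 2, the low Opalin. The places above sham of Myrf in tMCAO replicate 3 and of Cldn11 in celastrol replicate 2 rest on these.

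The gene closest to the mean of the other 8 over the 9 libraries was Mag, with a root mean square distance of 0.12 on the log2 scale. Ugt8a (0.61) and Opalin (0.60) were the farthest. Opalin had the widest range over libraries, 2.66 on the log2 scale. Outside the set, the genes nearest to its mean profile, of 10693 with at least 10 CPM, were 5031439G07Rik (distance 0.08), the pseudogene Rpl9-ps6 (0.10), Plekhg3 (0.11), Slc12a2 (0.14), a sodium, potassium and chloride cotransporter, and Mal (0.14), a proteolipid of myelin. The distances are a description over 9 libraries.

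Of the other genes of the lineage, edgeR called 0 at an adjusted p under 0.05 in each list named here. The counts that follow are at an unadjusted p under 0.05 in tMCAO against sham unless said otherwise, a mark that 14.9% of all genes passed in edgeR, and DESeq2 called 4.92% of all genes at its adjusted threshold. Of 30 other mature oligodendrocyte genes, 1 was past that mark on the higher side and 4 on the lower (16.7%, near the share of all genes), with a median log2 fold change of −0.07. Apod, which encodes the lipid carrier apolipoprotein D, was at 153 ± 86.2 CPM (SD, n = 3) in sham and 366 ± 36.2 CPM in tMCAO libraries (log2 fold change 1.26 ± 0.41, edgeR adjusted p of 0.229). Pllp, which encodes the myelin proteolipid plasmolipin, was at 39.4 ± 6.14 and 22.3 ± 8.10 CPM (−0.82 ± 0.33, edgeR adjusted p of 0.31). The others past that mark were Aspa, Car2 and Plxnb3, all lower. DESeq2 called 1 of the 30.

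Of 14 genes of myelin lipid synthesis and turnover, 1 was past that mark on the higher side and 1 on the lower (14.3%, median log2 fold change 0.04, DESeq2 0 called). Fa2h, which makes the hydroxylated fatty acids of galactosylceramide, was at 41.8 ± 10.96 CPM in sham and 27.3 ± 1.75 CPM in tMCAO libraries (−0.62 ± 0.27, edgeR adjusted p of 0.332). Elovl1, an elongase of very long fatty acids, was at 15.6 ± 2.06 and 24.6 ± 1.32 CPM (0.65 ± 0.20, edgeR adjusted p of 0.211).

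Of 17 genes listed as regulators of the lineage, most of them transcription factors, 2 were past an unadjusted p of 0.05 on the higher side and 2 on the lower (23.5%, median −0.13, DESeq2 0 called). Carhsp1 had a log2 fold change of 0.66 ± 0.20 and Id2, an inhibitor of differentiation, of 0.50 ± 0.17 (edgeR adjusted p of 0.22 and 0.249). Sox8 and Sox5 were the lower ones. Of 16 precursor genes, 1 was past it on the higher side and 2 on the lower (18.8%, median −0.33, DESeq2 1 called), with Cspg5 at −0.70 ± 0.19 and Vcan, which encodes the matrix proteoglycan versican, at 0.49 ± 0.18. Of 13 genes of newly formed oligodendrocytes, 1 was past it on the higher side and 0 on the lower (7.69%, median 0.00, DESeq2 1 called). That gene was 9630013A20Rik, a long non-coding RNA, at 1.07 ± 0.33, while Enpp6, an enzyme of newly formed cells, was at −0.57 ± 0.27 (edgeR adjusted p of 0.364). The lists share genes, so their counts and medians are not independent. Bcas1, Enpp6, Gpr17 and Neu4 stand in both the precursor and the newly formed list. Nfasc stands in the mature, newly formed and node lists, and Tcf7l2 in the regulator, newly formed and thalamic lists.

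A list of genes that oligodendrocytes and other cells express after injury had a higher median in tMCAO against sham than the other lists described here. The list was chosen with earlier results of these data known, so its rank and its share of genes are a description and not a test. Of its 16 genes, 10 were past an unadjusted p of 0.05 on the higher side and 0 on the lower (62.5%, beside 14.9% of all genes), with a median log2 fold change of 1.42, and DESeq2 called 8. Serpina3n, a protease inhibitor, had a log2 fold change of 4.40 ± 0.64 and the complement gene C4b of 2.35 ± 0.38 (edgeR adjusted p of 0.0907 each). In celastrol against tMCAO, 0 of the 16 were past an unadjusted p of 0.05 (median −0.21, and −0.05 without celastrol replicate 2). The mean of the list relative to sham was 1.87, 1.08 and 1.59 in the tMCAO libraries and 1.74, 0.38 and 1.47 in celastrol replicates 1 to 3. Celastrol replicate 2 was nearest to sham among the libraries with occlusion on this list. For the 9 genes it was the library farthest from the sham mean (−0.65). Reactive astrocytes and microglia express several of these genes too. The astrocyte gene Gfap was at 164 ± 78.2 CPM in sham and 1225 ± 372 CPM in tMCAO libraries, and the part of other cells was not tested.

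Of 8 inhibitors of axon growth in myelin and their receptors, 1 was past an unadjusted p of 0.05 on the higher side (Pirb, 2.503 ± 0.438) and 3 on the lower (Rtn4r, Lingo1 and Tnfrsf19), with a median of −0.20. Tnfrsf19 was at −0.49 ± 0.14, and by sign alone 3 of the 8 estimates were positive and 5 negative. Of 11 genes of the node and paranode, where the sheath ends, 0 were past that mark on the higher side and 1 on the lower (Sptbn4, a spectrin of the axon, −0.33 ± 0.13), with a median of −0.33. The adhesion gene Nrcam was at −0.38 ± 0.17, and by sign 3 of the 11 were positive and 8 negative. Of the 9 genes of peripheral myelin and Schwann cells 5 passed the filter, and 2 of these were past an unadjusted p of 0.05 on the higher side (Gldn, 3.42 ± 0.87, and Pmp22, 0.87 ± 0.31). Pmp2 was at 0 in every library. DESeq2 called 1 of the 8 inhibitors and receptors (Pirb), 0 of the 11 node and paranode genes and 1 of the 5 peripheral genes tested (Gldn).

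Markers of other cells and regions gave the following log2 fold changes in tMCAO against sham, none past the adjusted threshold in edgeR (adjusted p from 0.0907 for P2ry12 to 0.547 for Drd2 among the genes named here). Among neuron markers Tubb3 was at −0.57 ± 0.16 and Nefl at −0.46 ± 0.21, and among astrocyte markers Gfap was at 2.90 ± 0.49 and the gap junction gene Gja1 at −0.89 ± 0.24. The microglial receptor gene P2ry12 was at −1.76 ± 0.28 and the lysosomal gene Cd68 at 1.69 ± 0.38. In edgeR 5 of 10 markers of that list were past an unadjusted p of 0.05 (3 higher and 2 lower), beside 14.9% of all genes. Of the neuron markers 1 of 10 was past it (lower), and of the astrocyte markers 3 of 10 (1 higher and 2 lower). Of the endothelial markers 7 of 10 were past it (4 higher and 3 lower), with Itm2a at −1.25 ± 0.36 and Pecam1 at 1.01 ± 0.30. DESeq2 called 1 neuron marker (Tubb3), 2 astrocyte markers (Gfap and Gja1), 2 microglial markers (P2ry12 and Cd68) and 2 endothelial markers (Itm2a and Pecam1). Each of these lists had 10 genes, and DESeq2 called 4.92% of all genes.

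For the regions, 0 of 10 striatal and 0 of 10 thalamic markers were past that mark. The striatal gene Drd2 was at −1.26 ± 0.91, and the thalamic genes Prkcd and Plekhg1 at 2.62 ± 1.17 and 1.14 ± 0.63. Of 9 hippocampal markers tested 2 were past it, Neurod6 at −0.84 ± 0.28 and Wfs1 at 0.54 ± 0.22. Of 9 choroid plexus markers 1 was past it (Aqp1, 2.91 ± 0.93), and Ttr, the most abundant of them, was at 3.64 ± 2.01. DESeq2 called 1 choroid plexus marker (Aqp1) and 0 of the striatal, thalamic and hippocampal markers, with no adjusted p given for Prkcd and Tcf7l2.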

How the data were processed

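Ribosomal RNA was depleted with Ribo-Zero Gold and libraries were read as paired ends on an Illumina NovaSeq instrument, per the labels' protocols. The authors deposited 1 table with an estimated count and an FPKM value for each gene in each library. The tools named in the submitters' processing notes are HISAT2 2.0.4 and StringTie 1.3.4d on mm10, with cutadapt 1.9, DESeq2 and edgeR; the sources used here give no settings. The deposited estimated counts are whole numbers. For 99.05% of 11526 genes with at least 500 counts, the deposited FPKM matched a division by joined exon length within 5%.

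Genes that reached 0.5 FPKM in 3 or more of the 9 libraries were tested with edgeR 4.0.16 (R 4.3.3; TMM scaling, glmQLFit and glmQLFTest, all groups in 1 fit, two-sided), with Benjamini-Hochberg adjustment over all 16982 genes and a threshold of 0.05. The SE of an edgeR log2 fold change is its size over the root of F and is approximate. CPM values are TMM-scaled; log2 CPM used a prior count of 2. Alternatives were DESeq2 1.42.0, limma 3.58.1 on log2(FPKM + 0.5) or log2(FPKM + 0.1), upper-quartile scaling, other filters, the newer quasi-likelihood form, only the 2 groups compared, a replicate block and leaving out each library. The scripts were tested on simulated data with less spread between libraries than the real data, so that test does not show what could be detected here.

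The members and gene lists were chosen with earlier results of these data known. All 9 members were named; from each other list the 2 genes with the smallest unadjusted p in tMCAO against sham were named, since none passed, and further names were added after their values were seen. A gene under that rule is not reported here. Fcgr4 was named as the single gene called. Promoter windows came from RefSeq (GRCm38.p6), and overlaps of exons from GENCODE M21.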

Additional observations from a re-analysis of the deposited data

How the results depend on the processing

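None of the 9 genes was called in any comparison under any alternative, except Ugt8a in tMCAO against sham by DESeq2 (1 gene called). Its log2 fold change there ran from −1.20 to −0.90 with 1 library left out. The count of all genes called depended on the setting. In tMCAO against sham (0 in the report) it was 836 by DESeq2, 2 by limma on log2(FPKM + 0.1), 2 in the newer quasi-likelihood form, 30 with only the 2 groups compared, and 0 to 91 with 1 library left out, the highest without celastrol replicate 2. In celastrol against tMCAO (0) it was 19 by DESeq2 and 0 to 2 with 1 library left out. In celastrol against sham (1) it was 380 by DESeq2, 2 with FPKM of at least 1, 3 by limma on log2(FPKM + 0.1), 6 in the newer form, 3 with no filter, 4 with only the 2 groups compared, and 0 to 46 with 1 library left out, the highest again without celastrol replicate 2. The cause was not tested.

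The replicate block gave 51 genes called in tMCAO against sham and 22 in celastrol against sham, and changed no call among the 9 genes. Opalin in celastrol against tMCAO was at −0.84 with it. The numbers were not taken as pairs: over 9 same-numbered pairs the correlation of deviations ran from −0.156 to 0.198, 3 were above 0.1, and 4 of 9 libraries correlated best with their own number.

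Directions reversed in some fits that left out 1 library. In tMCAO against sham, Mbp ran from −0.21 to 0.24 and Opalin from −0.0774 to 0.35. In celastrol against tMCAO, Mog ran from −0.13 to 0.36, Mag from −0.23 to 0.20, Myrf from −0.32 to 0.14 and Cldn11 from −0.33 to 0.27. In celastrol against sham, Mog ran from −0.39 to 0.10 and Cnp from −0.17 to 0.15. With 3 libraries a group, changes within 2 SE of 0 could not be resolved.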
